A study of Rattus norvegicus with 2 samples.

Results

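Igf1, Igfbp3, Igfbp5 and Igfbp7 encode the insulin-like growth factor IGF1 and secreted proteins of the IGF-binding family. They were taken by name from the count tables of 2 single-cell libraries of rat facial suture, in which they are 4 of 22154 genes listed. Each was followed across marker-gated stromal, endothelial, macrophage and blood cells, by library.

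IGF1 is a small growth factor that signals through the IGF1 receptor and promotes growth of bone and cartilage; the liver releases it into blood, and fibroblasts and macrophages are among its local sources. IGFBP3 and IGFBP5 bind IGFs with high affinity outside the cell, carry them in blood and matrix, and can limit or prolong their access to the receptor. IGFBP5 also binds bone mineral and matrix, while IGFBP7 binds IGFs weakly and is a matrix protein of vessel walls and fibroblasts.

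The libraries come from rats aged 4 weeks, from the zygomatic maxillary suture that joins cheek bone and upper jaw by fibrous tissue. In the distraction library a W-shaped spring of 0.4 mm nickel-titanium wire with 20 g of initial force had pulled the suture for 7 days. In the sham library the same surgery was done and the holes were drilled, with no spring placed. Both groups were operated on under chloral hydrate, the cell suspension was pooled before loading, and the sources used here give neither the strain nor how many animals were used. The series asks, by its title, whether fibroblasts of a strained suture take on functions of vascular endothelial cells.

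Each group is 1 library, so there is no replicate spread and no test between groups. Ratios are given with exact 95% intervals of counting error, which leave out variation between cells, animals and libraries. A gene is called higher or lower when its ratio is at least 1.5 in either direction and the interval lies on 1 side of 1. Levels are CPM, the counts of a gene per 1000000 molecules (UMIs) of the same cells. The filters kept 4037 distraction cells, whose median depth was 4161 UMIs, and 5183 sham cells, whose median depth was 3033 UMIs. Of the cell barcodes, 22 occurred in both libraries; 1 distraction stromal cell and 1 sham macrophage carried such a barcode. Leaving these barcodes out changed no call of Igf1, Igfbp3, Igfbp5 or Igfbp7 in stromal cells or the fibroblast-led cells among them, described below. It also changed no call of Igf1 or Igfbp3 in macrophages, or of Igfbp3, Igfbp5 or Igfbp7 in endothelial cells. The other calls named here were not repeated without these barcodes.

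Cells were assigned by markers that do not include the 4 genes, and each class name rests on those markers alone. Stromal cells, carrying markers of fibroblasts, osteoblasts, chondrocytes or mural cells, numbered 79 in distraction and 55 in sham. Endothelial cells numbered 18 and macrophages 28 in distraction, against 14 endothelial cells and 21 macrophages in sham. The endothelial cadherin Cdh5 and the macrophage complement gene C1qa had 0 counts in the stromal cells of both libraries. Col1a1, type I collagen, was found in 77 of 79 distraction and 52 of 55 sham stromal cells. Neutrophil markers summed to 1422 CPM in distraction stromal cells, with 12 of 13 markers detected, against 859 CPM and 10 of 13 in sham. Monocyte markers summed to 4186 CPM in distraction and 1619 CPM in sham stromal cells, with 8 of 10 detected in each, and osteoclast markers to 985 CPM in distraction and 613 CPM in sham, with 2 of 6 detected in each. Relative to the whole library, the neutrophil sums were 0.028-fold in distraction and 0.031-fold in sham. The monocyte sums were 2.14-fold and 1.06-fold, and the osteoclast sums 19.8-fold and 21.2-fold. Monocyte markers were not used to leave out stromal cells, because Vcan, Fn1 and Klf4 are shared by both. Whether these molecules come from other cells, and their part in the results, was not tested.

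The promoters of Igfbp7 and Igfbp5 are shown because these genes had the most alike profile of the 4 over cell classes. That likeness mainly sets stromal cells against the other classes. Their ratios between libraries had opposite directions in stromal cells. The sequences are RefSeq windows of 300 bases on build GRCr8, from 250 bases before the gene start to 50 after, and capitals mark the GC box GGGCGG or its reverse complement CCGCCC. All 4 genes had a window. The Igfbp7 window is chr14:31091486-31091785 on the plus strand and the Igfbp5 window chr9:81914138-81914437 on the minus strand.
Igfbp7 promoter: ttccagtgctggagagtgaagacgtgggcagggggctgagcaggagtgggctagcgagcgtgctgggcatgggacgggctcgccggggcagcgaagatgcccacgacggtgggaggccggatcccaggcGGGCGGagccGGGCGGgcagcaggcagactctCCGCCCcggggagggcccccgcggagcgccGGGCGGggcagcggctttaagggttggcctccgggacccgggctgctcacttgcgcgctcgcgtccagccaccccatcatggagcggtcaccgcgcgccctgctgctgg
Igfbp5 promoter: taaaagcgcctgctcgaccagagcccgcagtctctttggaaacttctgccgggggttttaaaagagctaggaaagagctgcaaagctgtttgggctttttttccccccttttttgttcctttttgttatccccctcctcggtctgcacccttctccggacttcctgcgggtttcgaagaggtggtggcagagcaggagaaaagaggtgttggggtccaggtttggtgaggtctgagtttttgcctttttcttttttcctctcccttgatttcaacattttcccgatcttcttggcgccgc
Igfbp7 held 4 GC boxes and 32 CG pairs, and Igfbp5 held 0 GC boxes and 11 CG pairs. The Igf1 and Igfbp3 windows also held 0 GC boxes, with 7 CG pairs in Igf1 and 36 in Igfbp3. Of 33469 windows in the same table, 33.1% held a GC box and 8.97% held at least 3, and the median window had 7 CG pairs. TATAAA, searched on both strands, was in 0 of the 4 windows and in 14.2% of all. A match describes letters and is not a binding site.

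Most molecules of the 4 genes came from few cells. The gated stromal, endothelial and macrophage cells were 3.10% of distraction cells with 4.90% of UMIs, against 1.74% of sham cells with 3.45% of UMIs. They held 357 of 466 Igf1 counts in distraction (76.6%) and 190 of 251 in sham (75.7%). Their share of Igfbp3 counts was 87.4% in distraction and 60.3% in sham. For Igfbp7 the share was 83.1% in distraction and 70.3% in sham, and for Igfbp5 it was 60.6% in distraction and 67.4% in sham. Over all kept cells, Igfbp7 was called higher in distraction with a ratio of 1.86; of 3526 genes that passed the minimum of 50 CPM in 1 library, 14.7% were called, 5.47% higher and 9.25% lower. The other members lay below that minimum over all cells and were not among those genes. Their ratios were 1.75 (1.5 to 2.05) for Igf1, 2.07 for Igfbp3 and 0.982 for Igfbp5. The number of gated cells differed too, at 125 in distraction and 90 in sham, and its part in these whole-library ratios was not tested.

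**Figure D1:**
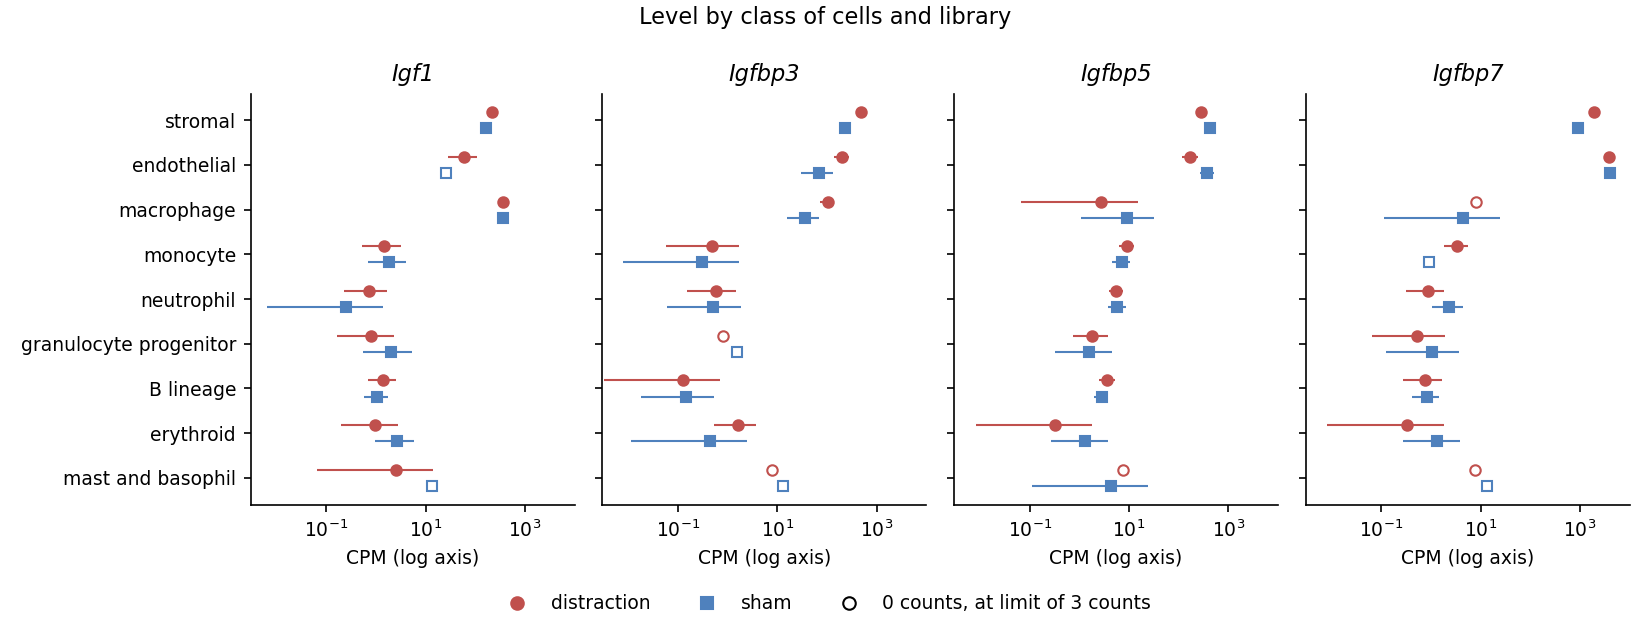
Level of each gene (CPM, log axis) in 9 cell classes of the distraction and sham libraries; points are summed counts as CPM, bars are exact 95% Poisson intervals and open symbols mark 0 counts, drawn at the level of 3 counts. Igf1 is high in stromal cells and macrophages, Igfbp7 in endothelial and stromal cells, and all 4 genes are low in the blood classes.

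Igf1, the ligand, had its highest level among the gated classes in macrophages. It reached 365 CPM (306 to 432) in distraction macrophages and 361 CPM (287 to 448) in sham macrophages, from 135 counts in distraction and 81 in sham. The ratio was 1.01 (0.763 to 1.35), so the macrophage levels differed by less than counting error, with an interval that reaches 1.35-fold. The sham macrophage with most Igf1 held 15 of the 81 counts and carried a barcode that occurred in both libraries. Over 11 other settings the log2 ratio of macrophage Igf1 ran from −0.18 to 0.64 and kept its direction in 8. The call was the same in 9 of the 10 settings with an interval. In both libraries stromal cells came next, at 214 CPM (186 to 245) in distraction and 161 CPM (133 to 195) in sham, with intervals apart from those of macrophages. Endothelial cells had 10 Igf1 counts in distraction, in 5 of 18 cells (59 CPM), and 0 counts in sham. Set against a floor of 3 counts in the sham cells, the distraction level was 2.30-fold that floor. This leaves out the counting error of the 10 counts. The counting interval of the ratio starts at 1.55, and 10 counts are below the minimum for a call. After thinning to 2000 UMIs, 0 of 16 distraction and 0 of 13 sham endothelial cells held Igf1. The blood classes together had 29 counts in 3542 distraction cells (1.09 CPM) and 31 counts in 4555 sham cells (1.22 CPM).

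Among macrophages, 22 of 28 distraction cells and 15 of 21 sham cells held Igf1. In cells that held it, the level was between 68.4 and 2212 CPM in distraction (median 336) and between 95.9 and 2601 CPM in sham (median 513). The ranges overlapped over most of their length. For background, 0.706% of distraction and 0.637% of sham blood cells held an Igf1 molecule, at smaller depth: macrophages had median UMIs of 13706 in distraction and 9779 in sham, against 2994 in distraction and 2636 in sham B lineage cells, the largest blood class. Thinned to 2000 UMIs per cell, 52.2% of distraction and 43.8% of sham macrophages held Igf1.

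Igfbp3, an IGF carrier, was the other member that passed the count minimum in macrophages. It had 38 counts in 12 of 28 distraction macrophages (103 CPM) and 8 counts in 2 of 21 sham macrophages (35.6 CPM). The ratio was 2.89 (1.33 to 7.16) and was called higher; 15.8% of genes were called in macrophages, 8.14% higher and 7.62% lower. All 12 distraction macrophages with Igfbp3, and both sham macrophages with it, also held Igf1. After thinning, Igfbp3 lay in 6 of 23 distraction macrophages (26.1%, exact interval 10.2 to 48.4) and in 0 of 16 sham ones (0 to 20.6). These intervals overlapped. Igfbp5 had 1 and 2 counts in distraction and sham macrophages, and Igfbp7 had 0 and 1. A count of 0 of 28 cells allows, at 3 cells of the total, a share of up to 10.7% of distraction macrophages with an Igfbp7 molecule.

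In the stromal cells as gated, Igfbp3 and Igfbp7 were called higher in distraction and Igf1 and Igfbp5 were not called. Igfbp3 was at 474 CPM (432 to 519) in distraction and 228 CPM (193 to 267) in sham, a ratio of 2.08 (1.73 to 2.51). That direction turned when cells counted equally or were thinned: the mean of single-cell levels was 334 CPM in distraction and 465 CPM in sham, and after thinning to 2000 UMIs the log2 ratio was −0.16 and was not called. Igfbp7 was at 1918 CPM in distraction and 926 CPM in sham, a ratio of 2.07 (1.89 to 2.27). The 2 called members stand beside a background of 35.8% of genes called in stromal cells, 23.6% higher and 12.1% lower; the log2 ratio of all genes tested had a median of 0.23. Igf1 had a ratio of 1.33 (1.05 to 1.69). Igfbp5 was at 280 CPM (248 to 315) in distraction and 419 CPM (372 to 471) in sham, a ratio of 0.668 (0.564 to 0.791) just short of a 1.5-fold decrease. A single sham cell held 124 of its 283 sham counts, and without the highest cell of each library Igfbp5 was at 239.6 CPM in distraction and 248 CPM in sham.

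Igfbp7 was detected broadly in both libraries. A molecule of it lay in 67 of 79 distraction stromal cells (84.8%) and in 30 of 55 sham ones (54.5%), and after thinning the shares were 81.6% in distraction and 52% in sham. Igf1 lay in 43 of 79 distraction stromal cells (54.4%) and in 17 of 55 sham ones (30.9%), and after thinning the shares were 31.6% in distraction and 26% in sham. Igfbp3 was found in 26 distraction and 11 sham cells, and 1 cell held 51.2% of its stromal counts in distraction and 64.3% in sham. Igfbp5 was found in 38 distraction and 24 sham cells.

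The stromal gate held different cells in the 2 libraries. Each stromal cell was assigned to the panel of which it carried the largest share of markers. Fibroblast markers led in 61 of 79 distraction cells (77.2%, exact interval 66.4 to 85.9) and in 23 of 55 sham cells (41.8%, 28.7 to 55.9). Osteoblast markers led in 7 distraction cells (8.86%) and 18 sham cells (32.7%). By molecules, fibroblast-led cells gave 78.5% of stromal UMIs in distraction and 25.2% in sham, and osteoblast-led cells gave 13% in distraction and 56.1% in sham. Mural markers, those of pericytes and vessel smooth muscle, led in 7 distraction and 8 sham cells. Ibsp, the bone sialoprotein of osteoblasts, was at 384 CPM in distraction and 1625 CPM in sham stromal cells.

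**Figure D2:**
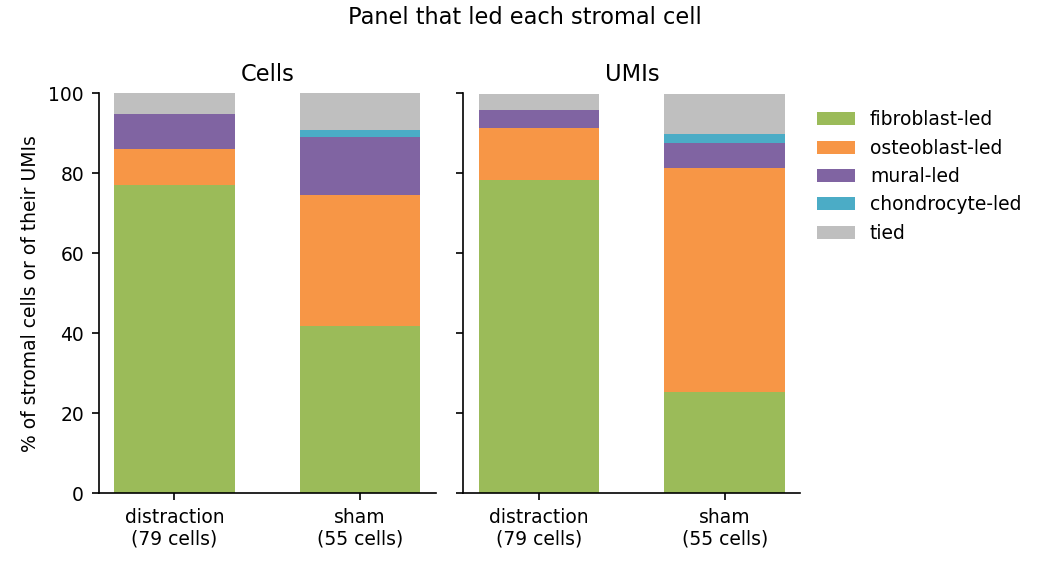
Panel that led each marker-gated stromal cell, as share of cells and as share of UMIs (percent), with the distraction library left of the sham library in each pair. Fibroblast-led cells gave 78.5% of stromal UMIs in distraction and 25.2% in sham, and osteoblast-led cells 13% in distraction and 56.1% in sham.

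Osteoblast-led cells nearly lacked the 4 genes. Igf1 had 0 counts in the osteoblast-led cells of both libraries, where 3 counts would be 23.4 CPM in distraction and 7.92 CPM in sham. Igfbp3 had 0 counts in distraction and 2 in sham, and Igfbp7 had 1 in each. Igfbp5 was the exception, with 9 counts in 2 of 7 distraction cells (70.2 CPM) and 22 in 4 of 18 sham cells (58.1 CPM). A single distraction cell held 8 of the 9 counts. Without the highest cell of each library Igfbp5 was at 9.68 CPM in distraction, below the level of 3 counts, and 33.0 CPM in sham. The osteoblast-led cells were among the deepest stromal cells, with median UMIs of 22085 in distraction and 15940 in sham.

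Within fibroblast-led cells Igfbp5 and Igf1 were called lower in distraction. The ratios of Igf1, Igfbp3 and Igfbp7 lay on the other side of 1 from those of all stromal cells, and that of Igfbp5 lay on the same side and further from 1. Igfbp5 was at 332 CPM in distraction, from 258 counts, and 1428 CPM in sham, from 243 counts, which is 4.30-fold lower (3.59 to 5.14). Igf1 was at 249 CPM in distraction, from 193 counts, and 482 CPM in sham, from 82 counts, which is 1.94-fold lower (1.48 to 2.52). After thinning to 2000 UMIs, Igf1 was at 333 CPM in distraction and 524 CPM in sham, and the call was lost. Of 3241 genes tested there, 21.7% were called, 13.3% higher and 8.42% lower; the median log2 ratio was 0.077. Igfbp7 was at 2129 CPM in distraction and 2210 CPM in sham, a ratio of 0.963 (0.861 to 1.08) that was not called. Igfbp3 was at 570 CPM in distraction and 758 CPM in sham, a ratio of 0.751 (0.616 to 0.921) that was not called. This split by panel was chosen after the stromal values had been seen.

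**Figure D3:**
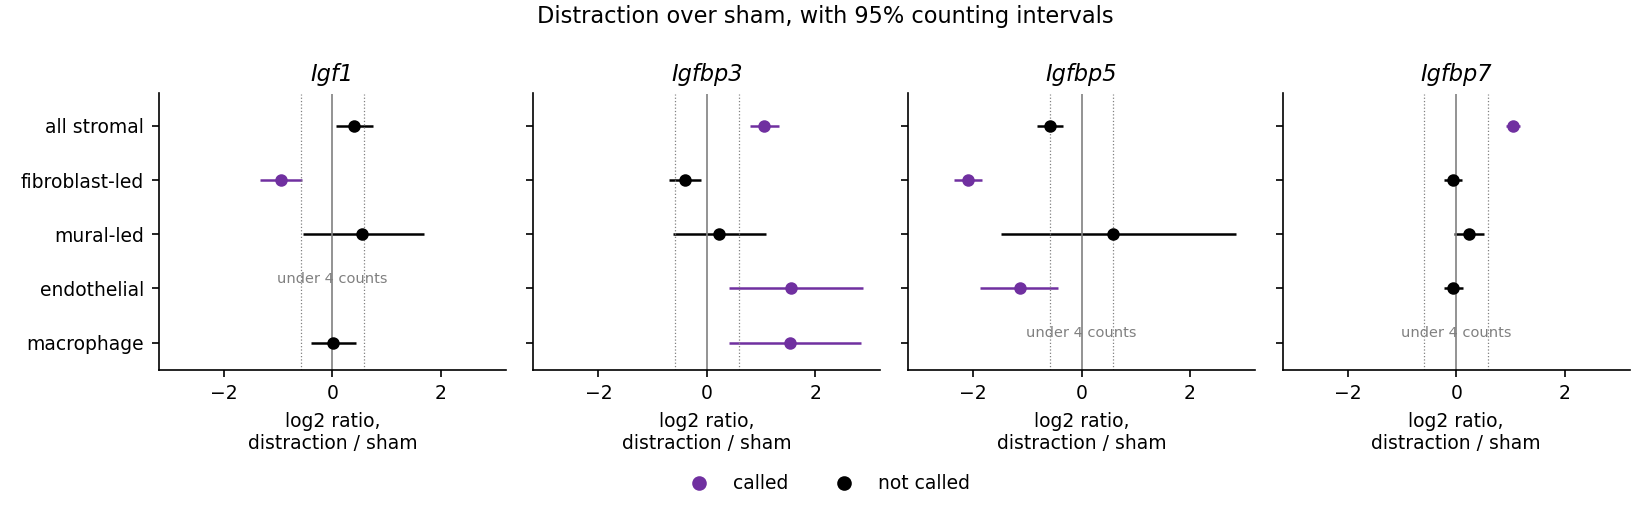
Log2 ratio of distraction to sham with 95% counting intervals for the 4 genes in all stromal, fibroblast-led, mural-led, endothelial and macrophage cells; purple points were called, black points were not, and dotted lines mark a ratio of 1.5. Igfbp5 and Igf1 lie below 0 in fibroblast-led cells, where Igfbp7 lies near 0.

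The pooled level of fibroblast-led cells rested on few of them. For Igfbp5, 1 sham cell held 51.0% of counts, with 124 of its 34339 UMIs; without the highest cell of each library the level was 281 CPM in distraction and 876 CPM in sham. The median fibroblast-led cell had 54.8 CPM of Igfbp5 in distraction and 244 CPM in sham, and the highest had 5923 CPM in distraction and 8933 CPM in sham. Igfbp5 thus stayed lower in distraction by pooled level and median cell, while the ranges overlapped from 0 upward.

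For Igf1 the pooled level and the median cell differed in direction. The median fibroblast-led cell had 160 CPM in distraction and 89.5 CPM in sham, and the highest had 5303 CPM in distraction and 3659 CPM in sham. Igf1 lay in 38 of 61 distraction cells (62.3%) and in 12 of 23 sham ones (52.2%), an order that turned after thinning, at 33.3% in distraction and 42.9% in sham. Without the highest cell of each library, the pooled level was 195 CPM in distraction and 405 CPM in sham. By raw counts, though not by CPM, the cell with most Igf1 was also the cell with most Igfbp5 in each library. In distraction it had 8109 UMIs, with 43 Igf1 and 42 Igfbp5 counts, and in sham it had 34339 UMIs, with 27 Igf1 and 124 Igfbp5 counts.

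Igfbp3 was concentrated most. It was found in 22 of 61 distraction and 6 of 23 sham fibroblast-led cells, so the median cell had 0 CPM in both. The highest distraction cell held 240 counts and the next 88, while the highest sham cell held 99 counts and the next 10. Without the highest cell of each library the direction turned, to 272 CPM in distraction and 183 CPM in sham. Igfbp7, by contrast, was broad, in 58 of 61 distraction cells (95.1%) and in 19 of 23 of the sham library (82.6%). Its median was 1925 CPM in distraction and 1536 CPM in sham, and without the highest cells its pooled level was 2003 CPM in distraction and 1811 CPM in sham.

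**Figure D4:**
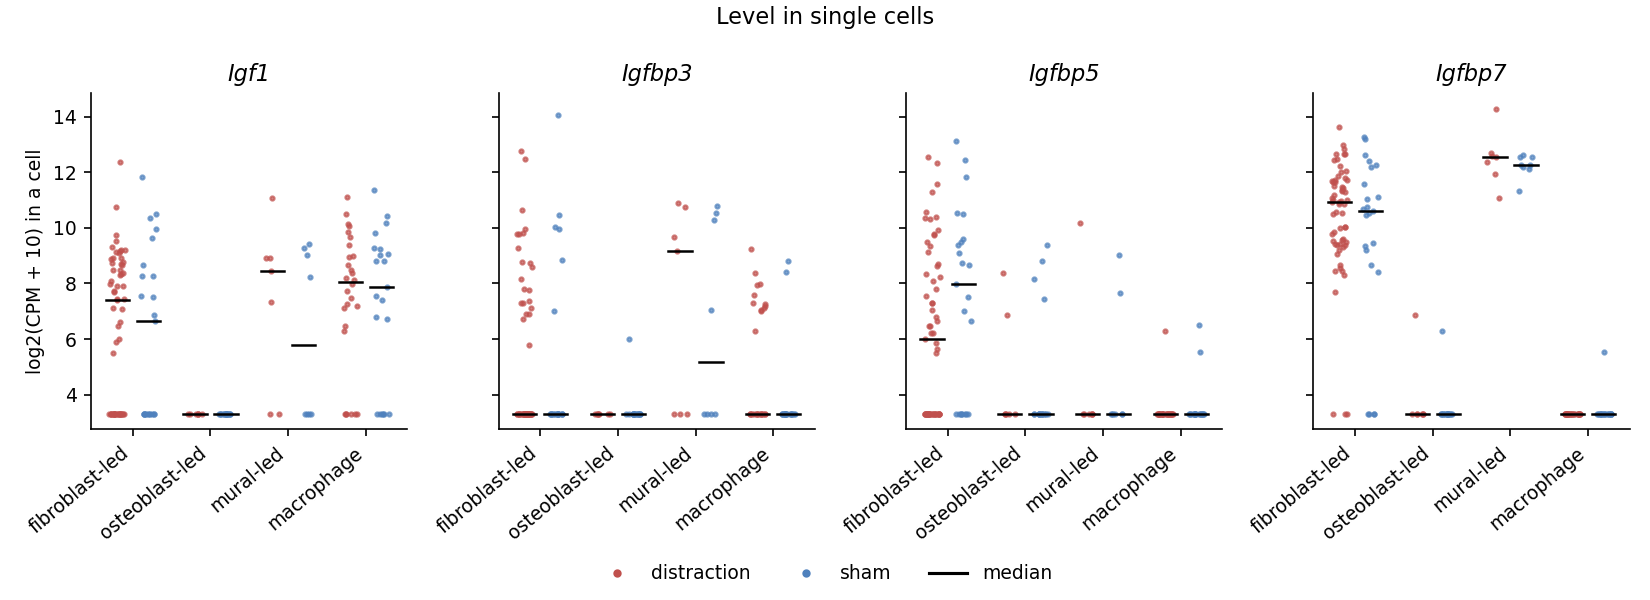
Level in single cells, as log2(CPM + 10), of the 4 genes in fibroblast-led, osteoblast-led, mural-led and macrophage cells; each point is 1 cell, bars are medians, and distraction stands left of sham. Igfbp7 is spread over most fibroblast-led and mural-led cells, while Igfbp3 is at 0 in most fibroblast-led cells of both libraries.

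Other genes also differed between the fibroblast-led cells of the 2 libraries. Bglap, osteocalcin, was at 116 CPM in distraction and 3815 CPM in sham, found in 9 of 61 distraction and 8 of 23 sham cells. The leukocyte gene Ptprc was at 125 CPM in distraction, in 12 of 61 cells, and had 0 counts in sham. The osteoblast list summed to 151 CPM in distraction and 547 CPM in sham, with 4 of 10 markers detected in each. The fibroblast list summed to 10188 CPM in distraction and 13277 CPM in sham, with Dcn, decorin, at 973 CPM in distraction and 2422 CPM in sham. Without cells holding Bglap or Ptprc, which left 42 distraction and 15 sham cells, Igfbp5 was at 337 CPM in distraction and 919 CPM in sham and Igf1 at 364 CPM in distraction and 632 CPM in sham. Both were called lower in that alternative, chosen after the data had been seen; Igfbp3, at 886 CPM in distraction and 1479 CPM in sham, was then called lower too.

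Mural-led cells carried more Igfbp7 than fibroblast-led or osteoblast-led cells, with all 7 distraction and all 8 sham cells positive. Igfbp7 was at 5609 CPM in distraction and 4779 CPM in sham, a ratio of 1.17 (0.970 to 1.42). Single cells ran from 2140 to 19971 CPM in distraction and from 2568 to 6336 CPM in sham, so the sham range lay inside that of distraction. Rgs5, a pericyte gene that was among the markers, was at 2258 CPM in distraction and 2168 CPM in sham. Igf1 was at 442 CPM in distraction and 303 CPM in sham, a ratio of 1.46 (0.684 to 3.21). Igfbp3 was at 628 CPM in distraction and 536 CPM in sham, and Igfbp5 had 6 counts in distraction and 4 in sham. No member was called in mural-led cells.

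Endothelial cells had the highest Igfbp7 of the main classes. It was at 3858 CPM in distraction, in 17 of 18 cells, and 4001 CPM in sham, in 12 of 14 cells. The ratio of 0.964 (0.855 to 1.09) was not called; 20.0% of genes were called in endothelial cells, 9.09% higher and 10.9% lower. Cdh5 was at 619 CPM in distraction and 701 CPM in sham, in 16 of 18 and 12 of 14 cells. Igfbp3 was at 201 CPM in distraction and 68.4 CPM in sham, from 34 and 8 counts, a ratio of 2.93 (1.33 to 7.33) that was called higher. That direction turned when 1 marker more was required or when cells of mixed identity were kept. Igfbp5 was at 171 CPM in distraction and 376 CPM in sham, 2.20-fold lower (1.35 to 3.64), but 38 of the 44 sham counts came from 1 cell. Without the highest cell of each library it was at 112 CPM in distraction and 55.4 CPM in sham.

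By pooled level of each class in both libraries, Igfbp7 was highest in endothelial cells, then in stromal cells, with macrophages and blood classes far below. Mural-led cells, counted in the stromal class, were above endothelial cells, at 5609 CPM in distraction and 4779 CPM in sham. For Igf1 the order was macrophages, then stromal cells, then endothelial and blood cells, with sham endothelial cells at 0 counts. Macrophages were at 365 CPM in distraction and 361 CPM in sham. Igf1 was at 442 CPM in distraction and 303 CPM in sham mural-led cells. In fibroblast-led cells it was at 249 CPM in distraction and 482 CPM in sham, and osteoblast-led cells had 0 counts. The stromal place in this order thus depends on the panels pooled. For Igfbp3 the order was stromal, then endothelial, then macrophage cells. The sham endothelial and macrophage values rest on 8 counts each and do not differ beyond counting error. For Igfbp5 stromal cells came before endothelial cells, and in sham, 419 CPM in stromal cells and 376 CPM in endothelial cells did not differ beyond counting error.

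Igfbp5 was detected at a low level in several blood classes. Together they had 115 Igfbp5 counts in distraction (4.31 CPM, in 3.05% of cells) and 91 in sham (3.59 CPM, in 1.84% of cells). Neutrophils had 39 Igfbp5 counts in distraction (5.56 CPM) and 23 in sham (5.84 CPM), against 6 Igfbp7 counts in distraction and 9 in sham. Monocytes had 38 Igfbp5 counts in distraction (9.08 CPM) and 23 in sham (7.14 CPM), B lineage cells 29 in distraction and 38 in sham, and erythroid cells 1 in distraction and 3 in sham. The share of cells with a molecule was 3.4% of distraction and 2.84% of sham neutrophils (median UMIs 4124 in distraction and 3982 in sham), against 0.239% of distraction and 0.940% of sham erythroid cells (median UMIs 3913 in distraction and 3871 in sham). At that like depth the neutrophil share was above the erythroid one in both libraries, from few molecules. In sham the intervals overlapped, at 1.77 to 4.31% for neutrophils and 0.194 to 2.72% for erythroid cells. In stromal cells, Igfbp5 had 277 and Igfbp7 1897 counts in distraction, and Igfbp5 283 and Igfbp7 625 counts in sham. Where the Igfbp5 molecules of the blood classes came from was not tested. The blood classes had 12 Igfbp3 counts in distraction and 6 in sham.

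Stromal cells with Igf1 or Igfbp3 nearly all held Igfbp7, itself found in most distraction stromal cells, while other pairs met in fewer cells. All 4 were found in 12 of 79 distraction and 4 of 55 sham stromal cells, and none in 7 distraction and 18 sham cells. Of cells with Igf1, 42 of 43 in distraction and 17 of 17 in sham also held Igfbp7. Of cells with Igfbp3, 26 of 26 in distraction and 10 of 11 in sham held Igfbp7. Igf1 and Igfbp5 were found together in 21 distraction and 10 sham cells, and Igfbp3 and Igfbp5 in 13 distraction and 5 sham cells. Cells differ in depth, and its part in these overlaps was not tested.

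Other genes of the IGF system were taken from lists by role. Of the other ligand genes listed, Igf2, Ins1 and Ins2, Igf2 was the one with enough counts for a comparison in stromal cells. This fetal growth factor was at 55.6 CPM in distraction and 11.8 CPM in sham, a ratio of 4.69 (2.22 to 11.4) called higher. In fibroblast-led cells it was at 65.7 CPM in distraction and 47.0 CPM in sham, a ratio of 1.40 (0.658 to 3.41) that was not called. Of 4 receptor genes, Igf2r passed the count minimum; it clears IGF2 and sorts lysosomal enzymes. It was at 242 CPM in distraction and 150 CPM in sham stromal cells, a ratio of 1.62 (1.27 to 2.06) called higher, and at 282 CPM in distraction and 288 CPM in sham fibroblast-led cells.

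Igf1r, the receptor that carries the IGF1 signal, had 0 counts in distraction stromal cells and 1 in sham, and 0 in macrophages of both. Each stromal gate would show 3 counts at 3.03 CPM in distraction and 4.44 CPM in sham, so a lower level or a difference was not detectable at this depth. Of 57 Igf1r counts in the distraction library, 51 lay in blood classes (1.91 CPM), and of 52 in sham, 45 (1.77 CPM). Ghr, the growth hormone receptor, had 24 of its 34 distraction counts and 13 of its 17 sham counts in stromal cells. Of 8 genes of the growth hormone arm, 2 passed in stromal cells, Socs1 and Jak2. Socs1, which restrains JAK signalling, was called lower, at 22.2 CPM in distraction and 80.0 CPM in sham stromal cells, 3.6-fold lower (2.15 to 6.20). In fibroblast-led cells Socs1 did not pass the minimum, so it was not compared there.

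Of 9 binding-protein genes, 4 passed in stromal cells, the 3 members and Igfbp4. Igfbp4, which mainly inhibits IGF action, was at 890 CPM in distraction and 598 CPM in sham, a ratio of 1.49 (1.32 to 1.68) just below the threshold. A single sham cell, outside the fibroblast-led ones, held 215 of the 404 sham counts. Without the highest cell of each library, an alternative added after the data had been seen, Igfbp4 was at 800.4 CPM in distraction and 285 CPM in sham, a ratio of 2.81 (2.39 to 3.31) called higher. In fibroblast-led cells it was at 1089 CPM in distraction and 770 CPM in sham, a ratio of 1.41 (1.18 to 1.71) that was not called; without the highest cells it was 1.55 (1.24 to 1.96) and called higher. It lay on the other side of 1 from that of Igfbp5. In macrophages it was at 59.5 CPM in distraction and 57.9 CPM in sham. The 4 binding-protein genes that passed had a median log2 ratio of 0.81 in stromal cells and −0.23 in fibroblast-led cells, against 0.23 and 0.077 for all genes tested. Igfbp6 had 21 counts in distraction and 8 in sham stromal cells, Igfbp2 had 1 in distraction and 0 in sham, and Igfbp1 had 0 in both.

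Of 11 genes for proteases that cut binding proteins and for their inhibitors, 10 were in the tables, 5 passed in stromal cells and 3 were called higher, with a median log2 ratio of 0.71. Htra1, a serine protease that can cut IGFBP5, was at 508 CPM in distraction and 225 CPM in sham, a ratio of 2.25 (1.88 to 2.72). Stc1, stanniocalcin, was at 77.8 CPM in distraction and 26.7 CPM in sham, and Ctsd, the lysosomal protease cathepsin D, at 104 CPM in distraction and 63.7 CPM in sham. Htra3 (1.34) and the plasminogen activator Plat (1.27) were not called. In fibroblast-led cells Htra1 was at 1.19 (0.950 to 1.51), Stc1 at 2.0 (0.919 to 5.19) and Ctsd at 1.26, none of the 3 called. The related protease Htra3 was called higher there, at 191 CPM in distraction and 99.9 CPM in sham. In macrophages Ctsd was called lower, at 687 CPM in distraction and 1203 CPM in sham.

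Of 21 signalling genes, 20 were in the tables, 6 passed in stromal cells and 1 was called, with a median log2 ratio of 0.25. Grb10, an adaptor that dampens insulin and IGF receptor signals, had a ratio of 1.61 (1.27 to 2.04) in stromal cells and 0.840 in fibroblast-led cells. The 5 not called in stromal cells were Pik3r1 (1.47), Akt1 (1.45), Irs2 (0.978), Pik3ca (0.958) and Shc1 (0.882). Irs2, a docking protein of both receptors, was called higher in fibroblast-led cells, at 273 CPM in distraction and 165 CPM in sham, and Jak2, the kinase of the growth hormone receptor, at 162 CPM in distraction and 94.0 CPM in sham. In macrophages Pik3r1, a regulatory subunit of PI3 kinase, was called higher, at 289 CPM in distraction and 192 CPM in sham. None of the 3 genes for IGF mRNA-binding proteins passed the minimum. Counts over these lists stand beside 35.8%, 21.7% and 15.8% of all genes called in stromal, fibroblast-led and macrophage cells.

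**Figure D5:**
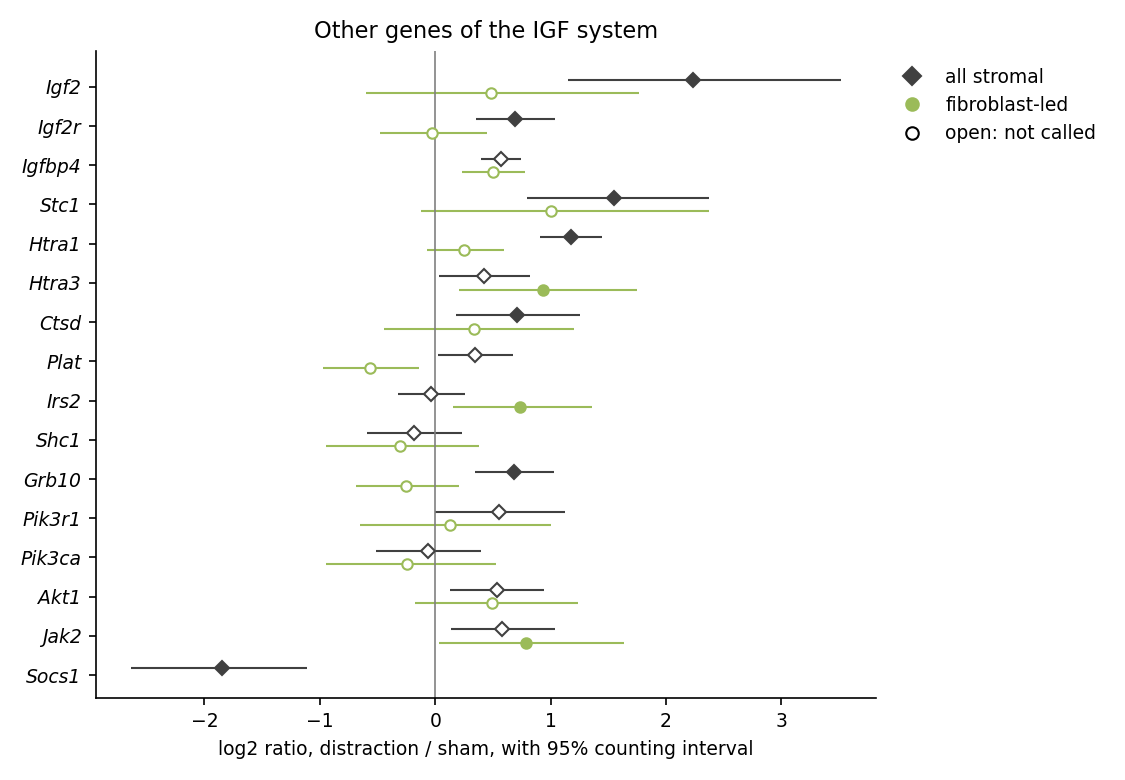
Log2 ratio of distraction to sham for other genes of the IGF system in all stromal cells (diamonds) and fibroblast-led cells (circles), with 95% counting intervals; filled symbols were called and open symbols were not. Igf2, Igf2r and Htra1 were called higher in all stromal cells and were not called in fibroblast-led cells.

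Genes with the most alike profile were ranked by Pearson's r of log2(CPM + 10) over 16 sums, 8 classes in each of the 2 libraries, among 6034 genes. The points share libraries and depth, and endothelial cells are not among them. Igfbp5 and Igfbp7 were below 10 CPM in every sum but the 2 stromal ones. Their r values thus mainly set stromal cells against the other classes. Igf1 and Igfbp3 were below 10 CPM in every sum but those of stromal cells and macrophages. The r values of Igf1 and Igfbp3 thus mainly set these classes against the rest. Closest to Igf1 were Itgb5 (0.991), Rhoc (0.987), Pdlim4 (0.972) and Ccnd1 (0.972). Closest to Igfbp3 were Colec12 (0.987), Il11ra1 (0.986), Phldb1 (0.983) and Kitlg (0.982). Igfbp5 was closest to Afap1 (0.987), Adamts2 (0.986), Nid1 (0.986) and Dcn (0.986), the last of which was a gate marker. Igfbp7 was closest to Tnfrsf19, Has2, Enpep and C1qtnf6, at 0.998 each. Among the members, Igfbp5 and Igfbp7 had 0.98, Igf1 and Igfbp3 0.896, and Igf1 and Igfbp7 0.578.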

How the data were processed

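Single-cell RNA-seq on the BD Rhapsody system gave 1 library per group. The authors' deposited values are whole-number UMI counts per gene and cell with no scaling, and the file headers name the BD WTA Rhapsody Analysis Pipeline 1.5.1. The submitters' processing notes name Rnor_6.0 and Seurat 3.6; the sources used here give neither the annotation nor the cell-calling rule. A gene missing from 1 of the tables was set to 0 there. The deposited tables held 4889 distraction cells with 32078960 UMIs and 5351 sham cells with 29924342 UMIs, and their shallowest cells had 125 and 920 UMIs.

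Cells with at least 500 UMIs, 200 genes and under 25% mitochondrial counts were kept. A cell was gated by at least 3 markers of a class, each at or above the library's pooled level. For stromal cells the markers were counted over the fibroblast, osteoblast, chondrocyte and mural panels together. A panel-led cell may thus hold fewer than 3 markers of its leading panel. Markers found in over 5% of cells of both libraries were dropped for the stromal, endothelial and macrophage gates, which used 39, 10 and 11 markers. Cells meeting a gate and another gate or blood class were left out as mixed, 35 in distraction and 27 in sham. Monocyte, dendritic, plasma and osteoclast markers did not count for this. No doublet caller was run, so doublets may remain. Counts were summed per class and library, scaled to CPM and compared as ratios with exact conditional-binomial 95% intervals; levels have exact Poisson intervals, shares Clopper-Pearson ones. Intervals and floors (3 counts per library and class) cover counting error only. Genes compared had at least 30 counts over both libraries and 50 CPM in 1. Shares of cells were repeated after thinning to 2000 UMIs. Named genes are the members in classes of at least 10 cells, list genes called or at 50 CPM or more (up to 6 per list), and the 4 closest in profile to each member; others, those of fibroblast-led cells included, were picked with their values in view. The members and lists were chosen with earlier results of these data known. The ratio rule was tested on simulated data. Alternatives changed filters, gates, pooling, thinning and clustering.

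Software was Python 3.11.15, numpy 2.4.6, scipy 1.17.1, pandas 2.3.3, scanpy 1.11.5, leidenalg 0.10.2, igraph 0.11.9, scikit-learn 1.9.0 and matplotlib 3.10.9.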

Additional observations from a re-analysis of the deposited data

Results flagged for a closer look

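Igf1 was also detected in cells of mixed identity, which the comparisons leave out. It had 74 counts in distraction (94.8 CPM) and 26 in sham (58.7 CPM), a ratio of 1.615. A single distraction cell held 26 of the 74 counts; without the highest cell of each library the level was 64.7 CPM in distraction and 47.3 CPM in sham, a ratio of 1.37 (0.796 to 2.43) that was not called. Of the Igf1 counts, 52 in distraction and 15 in sham lay in cells with both macrophage and erythroid markers. They were found in 6 of 10 such distraction cells and 7 of 8 such sham cells. The other members were lower in distraction in cells of mixed identity. The ratio was 0.349 (0.252 to 0.481) for Igfbp3, 0.660 (0.453 to 0.965) for Igfbp5 and 0.614 (0.538 to 0.702) for Igfbp7. For Igfbp3 and Igfbp7 that was the other direction from all stromal cells. A single sham cell held 69 of 104 Igfbp3 counts, and another held 33 of 55 Igfbp5 counts.

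Igfbp7 was detected above sham in distraction cells that met no marker rule. It had 19 counts in 8 of 335 such cells in distraction (8.54 CPM) and 4 counts in 4 of 511 cells in sham (1.51 CPM), a ratio of 5.655. These counts and levels are below the minimum for a call. A single distraction cell held 8 of the 19 counts; without the highest cells the ratio was 4.35 (1.15 to 24.3).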

How the results depend on the processing

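No paired analysis was possible because each group has 1 library. All values here are log2 ratios of distraction to sham. In stromal cells they were 0.41 for Igf1, 1.06 for Igfbp3, −0.58 for Igfbp5 and 1.05 for Igfbp7, and in fibroblast-led cells −0.95, −0.41, −2.10 and −0.054 in the same gene order. Igfbp5 in fibroblast-led cells was lower in 11 of 11 settings (−2.12 to −1.15), and Igf1 there in 11 of 11 (−1.05 to −0.42), though Igf1 was not called when thinned (−0.65). Igfbp3 in macrophages was higher in 10 of 10 (1.14 to 3.11); thinning gave no value there. Taking fibroblast-led cells in place of all stromal cells, which was added after seeing the data, reversed Igf1 (−0.95), Igfbp3 (−0.41) and Igfbp7 (−0.054) and left 703 genes called in place of 1065. With 1 marker fewer, Igfbp7 was 0.90 in stromal and 0.16 in fibroblast-led cells; with mixed cells kept it was 0.75 and 0.12. Endothelial Igfbp3 reversed to −2.21 with mixed cells kept and to −2.29 with 1 marker more. As a mean of per-cell shares, stromal Igfbp3 reversed to −0.48 and Igfbp7 was 0.44, and in fibroblast-led cells Igf1 was −0.42, Igfbp3 −1.37 and Igfbp5 −1.16. Thinned to 2000 UMIs, stromal Igf1 was 0.011, Igfbp3 reversed to −0.16, Igfbp5 was −0.27 and Igfbp7 0.45; fibroblast-led Igfbp3 was −0.93 and Igfbp5 −1.15; and 255 stromal and 78 macrophage genes were called, against 1065 and 389. Without the highest cell, stromal Igfbp3 was 1.54 and Igfbp5 −0.051, fibroblast-led Igfbp3 reversed to 0.58 and Igfbp7 to 0.15 with Igfbp5 at −1.64, and endothelial Igfbp5 reversed to 1.02. With every deposited cell kept, stromal Igfbp5 was −0.33. With no count minimum, 1885 stromal and 711 macrophage genes were called. In Leiden clusters, Igfbp3 was 0.58 and Igfbp7 0.46 in the fibroblast-named cluster, which also took 29 of 32 endothelial cells. In the macrophage cluster Igf1 was 0.64 and was called higher. Without cells holding Bglap or Ptprc, also added later, fibroblast-led Igfbp3 was −0.74, Igfbp5 −1.45 and Igfbp7 −0.40. The cause of these shifts was not tested. The stromal gate held 79 distraction and 55 sham cells, and no interval covers differences between animals.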
